A study of Homo sapiens with 4 samples.

Results

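Respiratory complex I is the first enzyme of the mitochondrial respiratory chain. It takes electrons from NADH, passes them to ubiquinone and pumps protons across the inner membrane. Its core subunits carry out the chemistry, its accessory subunits surround and stabilise them, and separate assembly factors help to build the complex without staying in it. Most of these proteins are encoded in the nucleus under names that start with NDUF, and several core subunits are encoded in mitochondrial DNA. Mature absorptive cells of the gut epithelium are rich in mitochondria.

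The members described here are all genes whose platform symbol starts with NDUFA, NDUFB, NDUFC, NDUFS or NDUFV and that have a probe set carrying that symbol alone. The rule found 44 genes with 82 probe sets, out of 19775 genes with such a probe set on the array. Of the 44 genes, 33 encode subunits, 8 are NDUFAF assembly factors and 3 are non-coding genes named after a neighbour. A gene was represented by its probe set with the highest mean log2 signal. The subunits NDUFS5, NDUFS8 and NDUFC2 have only probe sets with several gene symbols and were not analysed here. Another core subunit was not analysed here. NDUFA4, which is now assigned to complex IV, stands in the platform annotation as COXFA4 and is therefore no member.

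Gene expression was measured on 4 Affymetrix oligonucleotide arrays in RCM‐1, an established human line from a well-differentiated colorectal cancer that forms domes, blister-like areas of the cell sheet. Cultures received 1 mM methylthioacetic acid (MTA), a small sulphur-containing acid, during 6, 12 or 18 h, followed by MTA-free medium with the vehicle, 0.1% acetonitrile, up to 24 h. The cells with the longest MTA treatment thus had the fewest hours without it. The 0 h array, labelled as the control, is the denominator of every ratio. Its culture had 0.1% vehicle and no MTA, and its harvest time was not found. Time in culture and MTA can therefore not be told apart in these ratios. Each time has 1 array, so there is no replicate and no test, and the precision of every value is limited by this number of arrays.

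A probe set was kept for comparison when it was among as many of the brightest as the study counts as detected, which put the lowest mean signal at 34.0. All 33 subunits and all 8 assembly factors passed with the probe set that represents them, and 10505 genes passed in all. Over these genes the log2 ratio to 0 h had medians of 0.11, −0.28 and −0.47 after 6, 12 and 18 h, and members are read against them. Fewer cells of a kind and less RNA per cell cannot be told apart in these bulk samples. All 8 markers of colorectal epithelium that were looked up (EPCAM, KRT8, KRT18, KRT20, CDH1, VIL1, CDX2 and CEACAM5) were kept. Of 8 markers of blood, endothelial, stromal and liver cells only PECAM1 was kept, the highest signal of the 8 on any array was 53.0, and their summed signal lay between 109.2 and 123.8 on the 4 arrays. For 4676 genes with more than 1 kept probe set, the SD of the difference in 18 h ratio between the brightest and the next was 0.48. Cultures were not replicated, so no other error can be given.

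At 18 h of MTA the subunits of complex I lay close together, slightly below the median of all genes, whereas several assembly factors lay far below both. The 33 subunits had a median log2 ratio of −0.63, which is a shift of −0.17 from all genes, and ranged from −1.11 (NDUFS6) to −0.14 (NDUFA5). The 8 assembly factors had a median of −1.37, a shift of −0.90, and ranged from −2.04 (NDUFAF4) to −0.42 (NDUFAF7). Only 1 of 33 subunits but 5 of 8 assembly factors had a log2 ratio below −1, where 15.8% of all kept genes did. Below −1.5, the threshold of the study, were no subunit and 4 of 8 assembly factors, against 3.19% of all kept genes. No subunit and no assembly factor was above 1 at any time, where 4.68%, 3.28% and 3.15% of all kept genes were at 6, 12 and 18 h.

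**Figure D1:**
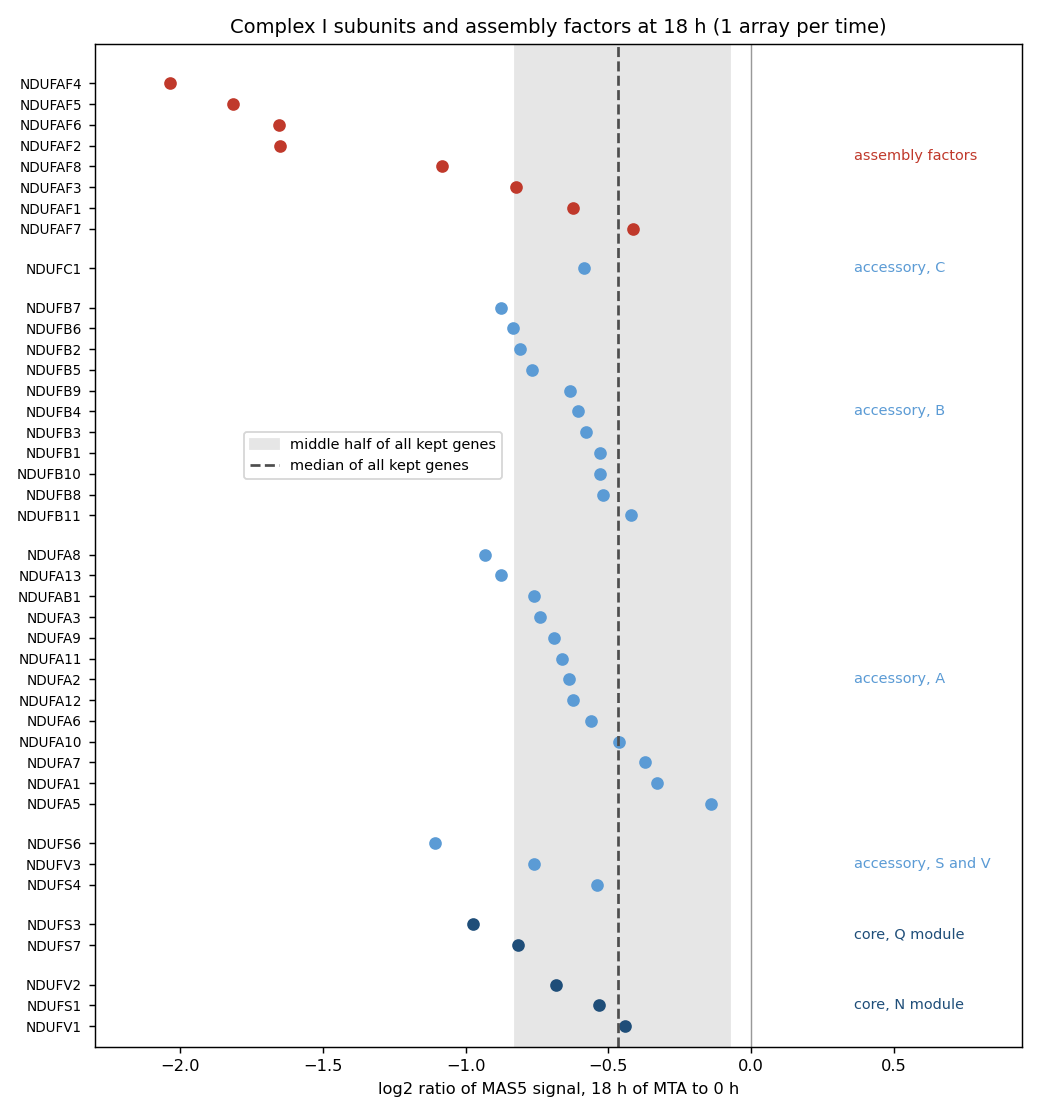
Complex I members on the 18 h array as log2 ratios of MAS5 signal to 0 h, with the 33 subunits in blue, core subunits darker, and the 8 assembly factors in red, 1 point per gene and 1 array per time, with no error bars because there are no replicates. The grey band spans the interquartile range of all 10505 kept genes and the dashed line marks their median, −0.47; NDUFAF4, NDUFAF5, NDUFAF6 and NDUFAF2 lie left of every subunit.

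The N module is the part of complex I that takes up NADH. On their brightest probe sets its core subunits had a median log2 ratio of −0.53 at 18 h, a shift of −0.064 from all genes. NDUFV2 lay lowest of them, with a shift of −0.22. NDUFV1, which holds the site where NADH is oxidised, had signals of 927.0, 929.3, 941.3 and 681.9 at 0, 6, 12 and 18 h, a log2 ratio of −0.44 at 18 h. NDUFV2, an iron-sulfur subunit beside it, had signals of 1753, 1944, 1291 and 1090, and a log2 ratio of −0.69. NDUFS1, the largest iron-sulfur subunit, had 1023, 1099, 746.6 and 707.8, and −0.53. In all of them the 18 h array was the lowest, and NDUFV1 was the only subunit whose signal at 12 h was above that at 0 h. NDUFS1 also had log2 ratios of −0.70 and −0.90 on its other kept probe sets.

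The core subunits measured in the Q module, where ubiquinone is reduced, lay lower when each gene was read on its brightest probe set. NDUFS3 had signals of 1606, 1413, 1062 and 818.3 at 0, 6, 12 and 18 h, a log2 ratio of −0.97. NDUFS7, which carries the last iron-sulfur cluster before ubiquinone, had 231.2, 231.2, 201.1 and 131.3, and −0.82. The signal of NDUFS3 was lower on each later array, while that of NDUFS7 did not move until 12 h. These values rest on 2 of the 4 core subunits listed for this module.

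Among the accessory subunits NDUFS6 had the lowest ratio. NDUFS6, which binds zinc and joins late in assembly, had signals of 1981, 1800, 1191 and 919.2 at 0, 6, 12 and 18 h, a log2 ratio of −1.11. It was the only subunit below −1, and 11.8% of all kept genes lay lower. NDUFS4, an accessory subunit often mutated in complex I deficiency, had 572.7, 583.5, 446.2 and 393.9, a log2 ratio of −0.54. NDUFV3 had −0.76 on its brightest probe set and −0.88 on a dimmer one. At 6 and 12 h the brightest had −0.04 and −0.59, and the dimmer one had −0.94 and −1.49.

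The NDUFA series, 13 accessory subunits spread over the complex, had a median log2 ratio of −0.64 and held the highest ratios of all subunits. NDUFA8, on the intermembrane space side, had signals of 1253, 1292, 1063 and 656.9 at 0, 6, 12 and 18 h, a log2 ratio of −0.93. NDUFA13, a membrane subunit also linked to cell death, had 2649, 2476, 2011 and 1442, and −0.88. On the log2 scale both differed more between 12 and 18 h than between 0 and 12 h.

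At the other end of the series, NDUFA5, an accessory subunit of the Q module, had signals of 1104, 1451, 886.1 and 1001, and a log2 ratio of −0.14. It was the only subunit with a higher signal at 18 h than at 12 h. NDUFA1, a small membrane subunit needed for assembly, had 6027, 7787, 5577 and 4799, and −0.33. NDUFA7 had 1098, 1097, 1041 and 847.9, and −0.37. NDUFA10, which resembles nucleoside kinases, had 392.8, 481.7, 324.8 and 285.2, and −0.46. These 4 genes lay above the median of all genes, and NDUFA5 and NDUFA1 were among the subunits highest at 6 h. NDUFAB1, the mitochondrial acyl carrier protein, which also serves fatty acid synthesis, had −0.76.

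The NDUFB series, 11 accessory subunits of the membrane arm, was the most even of the larger series, its log2 ratios running from −0.88 to −0.42 around a median of −0.61. NDUFB7 had signals of 966.4, 805.7, 588.0 and 526.7 at 0, 6, 12 and 18 h, a log2 ratio of −0.88. NDUFB6 had 3164, 3269, 2602 and 1776, and −0.83. NDUFB2 had 3559, 3470, 2605 and 2030, and −0.81, with −1.23 on its second kept probe set. NDUFB7 was already lowest of the subunits at 6 h, at −0.26, while NDUFB6 was above its 0 h signal then.

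The highest of the series was NDUFB11, encoded on the X chromosome, with signals of 2580, 2661, 2339 and 1926 and a log2 ratio of −0.42. NDUFB8, whose protein is a common marker of assembled complex I, had 2083, 2221, 1863 and 1453, and −0.52. NDUFB10 had 2371, 2490, 2063 and 1642, and −0.53. All 3 genes had their highest signal at 6 h and their lowest at 18 h. NDUFC1, the measured member of the NDUFC series, had −0.58.

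The assembly factors differed from each other far more than the subunits did, with an SD of the log2 ratio at 18 h of 0.60 over 8 genes against 0.20 over 33 subunits and 0.66 over all kept genes. Some 59.9% of all kept genes lay within the range of the subunits at 18 h, as did 4 of 8 assembly factors. The other 4 lay below the lowest subunit, where 11.8% of all kept genes lay.

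NDUFAF4, which builds the Q module together with NDUFAF3, had the lowest ratio, with signals of 1575, 827.3, 487.5 and 383.9 at 0, 6, 12 and 18 h. Relative to 0 h this is −0.93, −1.69 and −2.04 on the log2 scale, so that 24.4% of the 0 h signal was left, and only 0.543% of all kept genes lay lower. A second kept probe set of NDUFAF4 had −1.48 at 18 h. NDUFAF3, its partner, had signals of 614.5, 679.1, 499.9 and 346.8, and a log2 ratio of −0.83, within the range of the subunits.

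NDUFAF5, which modifies an arginine of NDUFS7, had signals of 201.1, 147.3, 87.85 and 57.15 at 0, 6, 12 and 18 h. Its log2 ratio at 18 h was −1.81, and −1.43 on a second kept probe set of similar brightness. NDUFAF8, which binds and stabilises NDUFAF5, had 857.8, 755.7, 456.6 and 404.6, a log2 ratio of −1.08. The signals of both were lower on each later array.

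NDUFAF2, a relative of NDUFA12 that holds its place late in assembly, had signals of 1760, 1576, 814.7 and 561.4 at 0, 6, 12 and 18 h, a log2 ratio of −1.65. NDUFA12 itself, the subunit that replaces it, had −0.62. NDUFAF6, which acts early in the assembly of the Q module, had 766.4, 660.3, 395.5 and 243.7, a log2 ratio of −1.65. A dimmer probe set of NDUFAF6, not kept, had −0.49. At 6 h NDUFAF2 and NDUFAF6 had log2 ratios of −0.16 and −0.22, which are shifts of −0.27 and −0.33 from all genes. For both, the 12 and 18 h arrays were far lower.

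The remaining assembly factors lay among the subunits. NDUFAF1, part of the complex that assembles the inner membrane arm, had signals of 473.4, 480.3, 330.8 and 306.9 at 0, 6, 12 and 18 h, a log2 ratio of −0.62. NDUFAF7, a methyltransferase acting on a core subunit, had 215.2, 212.8, 182.8 and 161.4, and −0.42. It was the only assembly factor above the median of all genes, and its dimmer kept probe set, with a signal of 41.8 at 0 h, had 1.09.

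**Figure D2:**
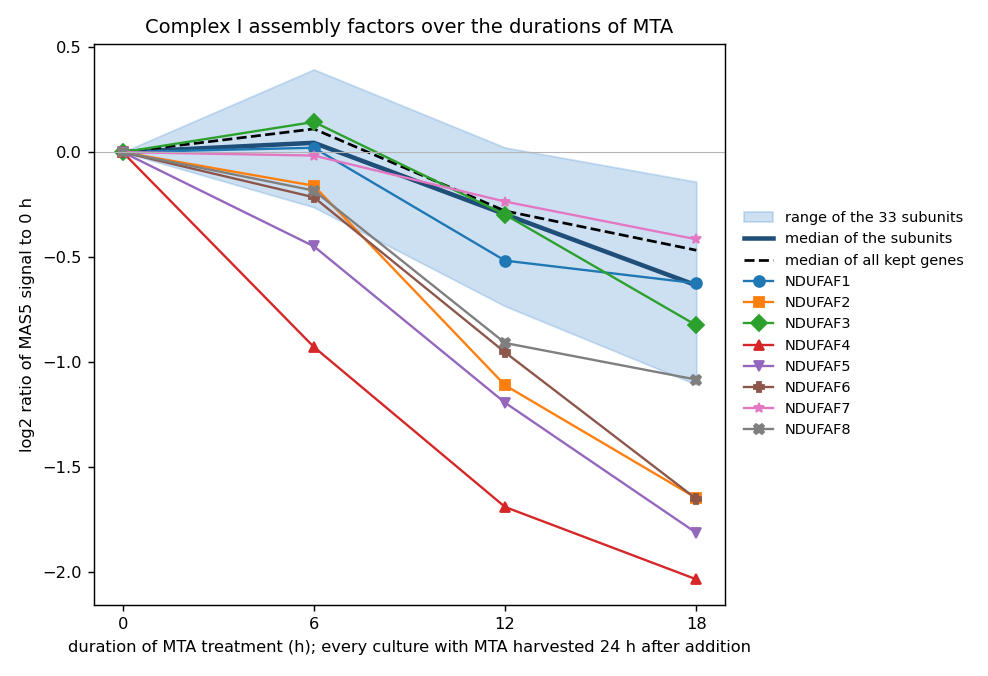
Log2 ratio of MAS5 signal to the 0 h array for the 8 assembly factors, plotted against the duration of MTA treatment in hours, with the range (blue band) and median (thick line) of the 33 subunits and the median of all kept genes (dashed), 1 array per time and no error bars. NDUFAF4 and NDUFAF5 lie below the band from 6 h and NDUFAF2 and NDUFAF6 from 12 h, while NDUFAF8 lies below it at 12 h and just inside its lower edge at 18 h.

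Some assembly factors lay below every subunit before 18 h, while the others lay within the range of the subunits. At 6 h the subunits had a median log2 ratio of 0.04 and ranged from −0.26 to 0.39, and 11 of 33 were below 0, against 37.7% of all kept genes. The assembly factors had a median of −0.17, and NDUFAF4 and NDUFAF5 lay below the lowest subunit, where 15.3% of all kept genes lay. No subunit or assembly factor was below −1 at 6 h, against 0.476% of all kept genes, or below −1.5, against 0.019%. At 12 h the medians were −0.30 for the subunits and −0.93 for the assembly factors, and 3 of 8 assembly factors but no subunit were below −1, against 6.29% of all kept genes. Only NDUFAF4 was below −1.5, against 0.942%. At 12 h 32 of 33 subunits and all 8 assembly factors were below 0, as were 71.6% of all kept genes, and 5 assembly factors lay below the lowest subunit, where 16.3% of all kept genes lay. From 6 to 12 h and from 12 to 18 h the signal was lower at each step in 31 of 33 subunits and in all 8 assembly factors, and in 67.6% of all kept genes. The exceptions were NDUFA5 and NDUFV1. Duration of MTA and time without it cannot be told apart in this order, and the 3 ratios of a gene share the 0 h array.

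Promoter sequences from RefSeq (GRCh38.p14) were matched by symbol for 41 of the 44 members; NDUFAF6, NDUFB5 and NDUFB9 were not matched. The 250 bases before the transcription start are shown for the lowest 3 assembly factors that were matched, because these lay below every subunit, and for NDUFS6, the subunit with the lowest ratio, beside them. Each is written 5′ to 3′ on the strand of its gene, with capitals for a match to CCGGAAG (ETS), CACGTG (E-box) or the NRF1 motif (GCGCA and GCGC with 1 base of any kind between them), searched on both strands.
NDUFAF4 (chr6:96897892-96898141, minus strand): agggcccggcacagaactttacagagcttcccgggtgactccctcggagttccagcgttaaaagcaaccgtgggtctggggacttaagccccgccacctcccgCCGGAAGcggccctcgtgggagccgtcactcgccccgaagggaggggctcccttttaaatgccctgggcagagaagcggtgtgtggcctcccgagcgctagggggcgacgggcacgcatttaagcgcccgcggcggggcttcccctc
NDUFAF5 (chr20:13784778-13785027, plus strand): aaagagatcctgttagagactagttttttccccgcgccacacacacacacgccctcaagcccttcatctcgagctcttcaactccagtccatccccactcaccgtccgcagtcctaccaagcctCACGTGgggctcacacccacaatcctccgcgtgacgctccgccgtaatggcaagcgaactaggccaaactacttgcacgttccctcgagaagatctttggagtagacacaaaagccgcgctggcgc
NDUFAF2 (chr5:60944955-60945204, plus strand): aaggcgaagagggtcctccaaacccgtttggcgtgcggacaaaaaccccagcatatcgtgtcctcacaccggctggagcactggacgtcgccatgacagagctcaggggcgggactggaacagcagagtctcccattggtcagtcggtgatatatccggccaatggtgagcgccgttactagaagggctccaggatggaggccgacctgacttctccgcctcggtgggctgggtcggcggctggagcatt
NDUFS6 (chr5:1801157-1801406, plus strand): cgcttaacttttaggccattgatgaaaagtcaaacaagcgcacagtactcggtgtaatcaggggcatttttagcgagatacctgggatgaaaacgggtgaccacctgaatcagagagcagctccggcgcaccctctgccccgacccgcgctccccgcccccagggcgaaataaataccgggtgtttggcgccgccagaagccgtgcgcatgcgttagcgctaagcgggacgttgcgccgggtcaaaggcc

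NDUFAF4 held 1 ETS match, NDUFAF5 held 1 E-box, and the windows of NDUFAF2 and NDUFS6 held none of the 3 motifs. Counting a gene when any of its annotated starts had a match, the ETS motif was found in 5 of 31 matched subunits and 2 of 7 matched assembly factors, against 20.1% of kept genes and 10.2% of all genes in the promoter table. The E-box was found in 3 of 31 subunits and 1 of 7 assembly factors, against 11.6% and 7.73%. The NRF1 motif was found in 5 of 31 subunits and in none of the 7 assembly factors, against 12.8% and 6.20%. These shares rest on few genes, and a match describes letters in a window, not binding.

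The direction of the subunit values depended on how the arrays were scaled, whereas the gap between assembly factors and subunits hardly did. All 33 subunits were below 0 at 18 h with the deposited scaling, as were 78.3% of all kept genes. The count was 28 with the ratios centred on their median, 27 with each array divided by its trimmed mean and 19 with quantile normalization. All kept genes had medians near 0 in these settings, namely −0.018, 0.048 and 0.010. With the poly-A controls as reference the count was 32, and with the hybridization controls it was 33. The medians of all kept genes stayed below 0 with these controls, at −0.21 and −0.42. Under every scaling tried, 19 of 33 subunits kept their sign. NDUFA5, for example, had 0.45 with quantile normalization. NDUFAF2, NDUFAF4, NDUFAF5 and NDUFAF6 stayed below −1 under each of them, with highest values of −1.05, −1.43, −1.30 and −1.08. The median of the assembly factors lay below that of the subunits by a difference of −0.73 with the deposited scaling and of −0.72 with quantile normalization. The other scalings move all genes of an array alike and leave this gap as it is. With a stricter filter, the 10000 brightest probe sets, NDUFAF5 dropped out, the gap was −0.45, and the shift of the assembly factors from all genes was −0.53. The number of assembly factors below −1.5 was 4 with the deposited scaling and 2 with the poly-A controls. It was 1 with median centring, 1 with the trimmed mean and 0 with quantile normalization. Of all kept genes, 3.19%, 1.36%, 0.714%, 0.581% and 0.790% lay below −1.5 in these settings, in the same order. The shift of the subunits from all genes was −0.064 with quantile normalization, −0.079 with the stricter filter and −0.31 without a filter.

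Brightness moved with the ratios, and the subunits were bright. Of 33 subunits, 28 were in the top quartile of signal among the kept genes, where all genes had a median log2 ratio of −0.57 at 18 h, against −0.20 in the bottom quartile. Within the top quartile the subunits had a median of −0.63, so they lay closer to the other genes there; the part of brightness in the ratios was not tested. Their spread stayed narrow beside the SD of 0.47 over all genes of that quartile. The assembly factors NDUFAF2 and NDUFAF4 were in the same quartile with a median of −1.84. The 4 assembly factors of the next quartile had −0.95 where all genes had −0.57, and the 2 of the one below had −1.12 where all genes had −0.44.

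**Figure D3:**
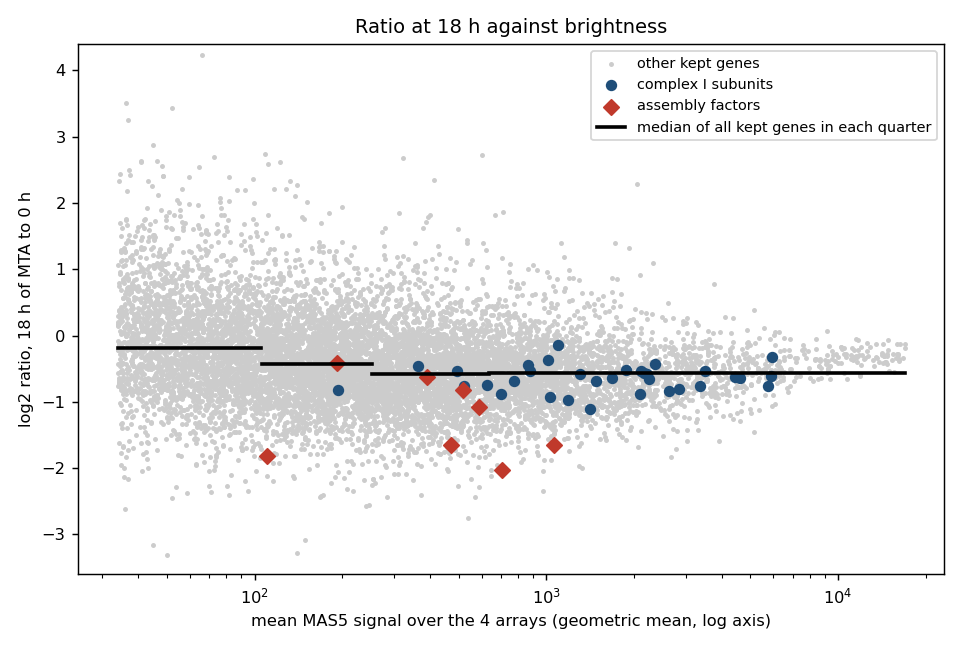
Log2 ratio of the 18 h array to the 0 h array (vertical) against the mean MAS5 signal over the 4 arrays (horizontal, log axis) for 33 subunits (blue), 8 assembly factors (red diamonds) and all other kept genes (grey), with black bars at the median of all kept genes in each quartile of signal. The subunits follow the bars closely at high signal, while NDUFAF2, NDUFAF4, NDUFAF5 and NDUFAF6 lie well under them.

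Most subunits with a second bright probe set had similar ratios on both at 18 h. Of 8 subunits with a second kept probe set, 7 had a lower ratio there at 18 h, with a median difference of −0.15 from the brightest one, against 2307 of 4676 genes in all. In the 3 assembly factors with a second kept probe set, NDUFAF4, NDUFAF5 and NDUFAF7, the ratio was higher there in each, with a median difference of 0.56. The exception was NDUFB1, with −0.53 on a probe set of 3818 at 0 h and 1.08 on one of 20.4. NDUFA11 had −0.66 and −0.67, NDUFB10 −0.53 and −0.64, and NDUFA6 −0.56 and −0.87.

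The non-coding genes in the neighbourhood of members were dim. NDUFV1‐DT, divergent to NDUFV1, had signals of 41.5, 52.2, 29.0 and 28.1 at 0, 6, 12 and 18 h, and its log2 ratio of −0.56 was the only one of the 3 from a kept probe set. NDUFB2‐AS1 had 26.4, 21.4, 9.20 and 3.27, and NDUFV2‐AS1 had 7.17, 10.1, 12.6 and 16.4, so their ratios rest on readings below the lowest mean signal kept.

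Other proteins that assemble complex I had a median close to that of the subunits. Over the 13 listed, all kept, the median log2 ratio at 18 h was −0.68, a shift of −0.21 from all genes, and 3 were below −1, against 15.8% of all kept genes. TMEM126B had −1.58, TMEM70, which also serves ATP synthase, had −1.34, and DMAC1 had −1.29. TMEM126B works in the same assembly complex as NDUFAF1, ACAD9 and ECSIT, which had −0.62, −0.56 and −0.68. The genes at the other end were TMEM186 at −0.08, NUBPL, which delivers iron-sulfur clusters, at −0.37, and LYRM2 at −0.47.

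The rest of the respiratory chain resembled the subunits of complex I, not its assembly factors. The median log2 ratio at 18 h was −0.51 over 7 genes of complex II and its assembly factors, −0.66 over 7 of complex III, −0.38 over 10 of complex IV and −0.54 over 17 of complex V. Each of complexes II, III and V had 1 gene below −1 and complex IV had none, against 15.8% of all kept genes. These genes were SDHAF2 at −1.22, CYC1 at −1.04 and ATP5MC1 at −1.02. SDHAF2 is an assembly factor of complex II that attaches its flavin. COXFA4, formerly NDUFA4, had signals of 4613, 4999, 3781 and 3123 at 0, 6, 12 and 18 h and a log2 ratio of −0.56. The 3 measured core subunits of complex I that are encoded in mitochondrial DNA, ND2, ND4 and ND6, had −0.18, −0.06 and −0.02, above the highest nuclear subunit except for ND2. Their signals at 0 h were 10349, 14688 and 154.2, where the nuclear subunits ran from 231.2 to 7122. The part of brightness in this contrast was not tested.

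Mitochondrial ribosomal proteins, which translate those mitochondrial transcripts, lay lower than the subunits, with a median of −0.98 over 75 genes and 35 of them below −1, against 15.8% of all kept genes. Of 11 kept genes that regulate the making of mitochondria, 3 were below −1, against 15.8% of all kept genes, and the median was −0.84. The 3 were PPRC1, a coactivator of the PGC family, at −1.94, PPARGC1B of the same family at −1.36, and TFB2M, which starts mitochondrial transcription, at −1.31. NRF1 and GABPA, transcription factors known to bind promoters of many respiratory genes, had −0.51 and −0.10.

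**Figure D4:**
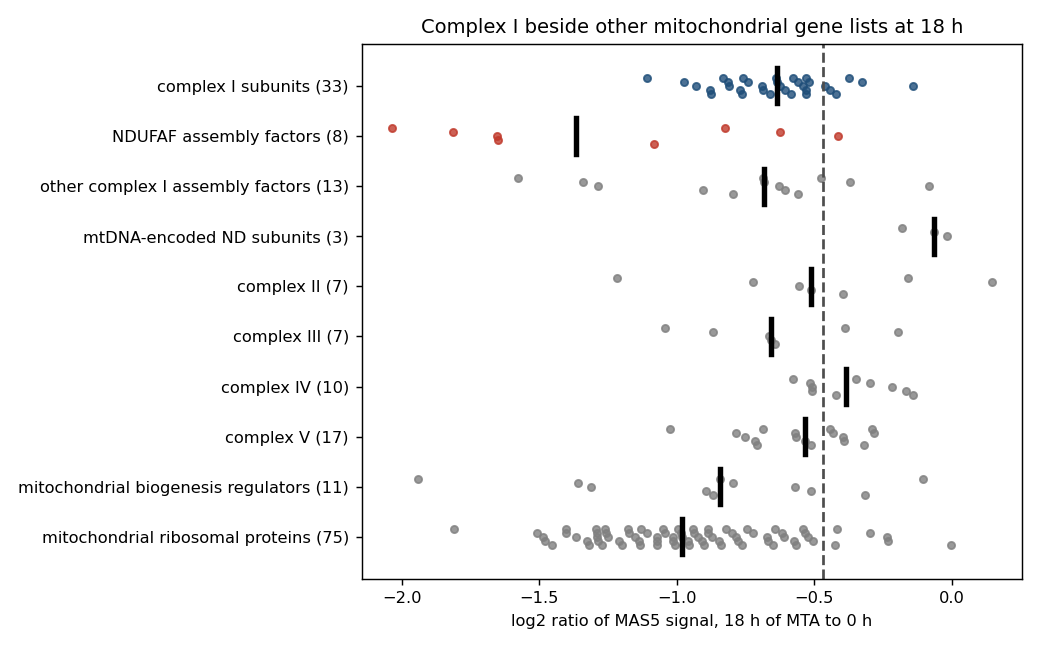
Mitochondrial gene lists on the 18 h array as log2 ratios of MAS5 signal to 0 h, for complex I subunits (blue), NDUFAF assembly factors (red) and 8 other mitochondrial gene lists (grey), 1 point per gene with the number of genes in brackets, thick bars for list medians and the all-gene median dashed. The bar of the NDUFAF assembly factors, at −1.37, lies furthest left, and that of the ND subunits encoded in mitochondrial DNA, at −0.06, furthest right.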

How the data were processed

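Total RNA of RCM‐1 cells was extracted, labelled with biotin and hybridised by the array's manufacturer, 1 array per duration of MTA. The deposited values are linear MAS5 intensities, 1 for each probe set, which the authors computed with Affymetrix Expression Console. Neither its version nor its scaling target was found in the labels or methods. MAS5 scales each array as a whole, so a shift common to most genes cannot be told apart from scaling. Control probe sets (62) were left out. Genes were named by the platform annotation through probe sets with 1 gene symbol. Log2 ratios to the 0 h array were taken with the deposited scaling and no pseudocount, and the thresholds were 1 and 1.5.

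The members, lists, thresholds and alternatives were chosen with earlier results of these data known. Signals are given for core subunits, assembly factors and the 8 lowest and 8 highest subunits at 18 h. They are also given for NDUFS4, COXFA4 and the non-coding genes. Of other mitochondrial lists up to 3 members at each end are named, and ACAD9 and ECSIT besides. Biogenesis regulators, respiratory complexes and other assembly factors came from textbook knowledge. The calculation was tested on simulated data. Alternatives were other scalings (median centring, quantile normalization, trimmed mean without 2% at each end, poly-A or hybridization controls), a pseudocount of 2.91, other probe sets, other filters, current symbols and thresholds of 0.5 and 1.5. Python 3.11.15, NumPy 2.4.6, pandas 2.3.3 and matplotlib 3.10.9 were used.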

Additional observations from a re-analysis of the deposited data

How the results depend on the processing

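No paired analysis was possible because each duration of MTA has 1 array, and no replicate could be left out for the same reason. The median log2 ratio of the subunits turned above 0 at 12 h with quantile normalization (0.041) and with division by the trimmed mean (0.025). At 18 h it was −0.054 and −0.12 in these settings, and that of the assembly factors was −0.78 and −0.85. The number of subunits below −1 at 18 h was 1 in the report. It was 0 with median centring, quantile normalization, the trimmed mean and the poly-A controls, against 3.74%, 3.84%, 3.08% and 7.47% of all kept genes. It was 2 when probe sets of a gene were averaged, against 15.0% of all kept genes, and 0 at a threshold of −1.5, against 3.19%. At a threshold of −0.5 it was 27. The share of all kept genes there was not counted, but their median was already −0.47. The number of subunits above the median of all genes at 18 h, 6 with the deposited scaling, was 13 with quantile normalization, 1 without a filter, 11 with the filter of 10000 probe sets, and 1 of 8 with the second brightest probe set. With the stricter filter NDUFAF5 dropped out and the median of the other 7 assembly factors was −1.08, which put the gap to the subunits at −0.45. Dim readings limit the second probe sets of NDUFB1 and NDUFAF7.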
